A study of Mus musculus with 200 samples.

Results

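Somite number was used to order backcross (N2) embryos within a single nominal day of gestation, embryonic day (E) 11.5, among the embryos carried by F1 mothers. Each embryo came from a (B6 × Cast)F1 female backcrossed to a B6 male, where B6 is the reference strain C57BL/6J and Cast is the wild-derived strain CAST/EiJ, so that at each autosomal gene an embryo was either homozygous for the B6 allele or heterozygous. Of the 184 embryos of the series, 154 N2 embryos had genotypes, and 62 of these had an F1 mother and a counted somite number. The early group held the 16 embryos with 47 or fewer somites (43 to 47, mean 45.9 ± 1.24, SD) and the late group the 13 embryos with 52 or more (52 to 54, mean 52.5 ± 0.776). The other 33 embryos had 48 to 51 somites and were used to estimate the effect of the sequencing lane. All embryos were unmanipulated, each was sequenced whole after the extra-embryonic membranes had been taken off, and the labels name no agent or transgene. N2 embryos of B6 mothers, from the reverse backcross to an F1 father, served as a separate set of embryos, with 39 early, 31 middle and 15 late.

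Somites are paired blocks of paraxial mesoderm that bud off one after another from the tail end of the embryo and later give rise to the vertebrae, the trunk muscles and the dermis, so their number counts developmental age more finely than the day of gestation. At this stage the primary fibre cells of the lens fill with crystallins, hepatoblasts of the liver bud begin to secrete plasma proteins, and the first muscle fibres and cartilage condensations differentiate in trunk and limb. Blood formation passes over the same days from primitive red cells of the yolk sac to definitive red cells of the fetal liver. The RNA-binding protein Lin28a and the microRNA family let-7 form a timing pathway in which Lin28a blocks the maturation of let-7 precursors and let-7 represses the *Lin28a* mRNA.

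Stage was unevenly spread over lanes and litters. Lane accounted for 52.6% of the variance in somite number and litter, the embryos of 1 pregnancy, for 79.4%. Of 6 lanes, G held 3 early and 5 late embryos and L held 1 early and 2 late, while E held 10 early and none that were late, C and M held 4 and 2 late and none that were early, and D held 2 early embryos besides middle ones. Lanes L and M shared a flow cell of the sequencer, and lanes C, D, E and G shared another. Of 12 litters, litter 7 alone had both early and late embryos, 3 and 1, all in lane G. Between 814478 and 2758204 reads were counted on genes per early embryo (median 1722991) and between 1870196 and 3030096 per late embryo (median 2625363). Globin genes took 6.48% to 19.6% of the reads of early embryos (median 13.4%) and 4.14% to 10.8% in late embryos (median 7.54%). *Xist*, which is transcribed from the inactive X chromosome, was above the Y-linked genes in 9 of 16 early and 3 of 13 late embryos, so that the groups differed in sex as well.

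**Figure D1:**
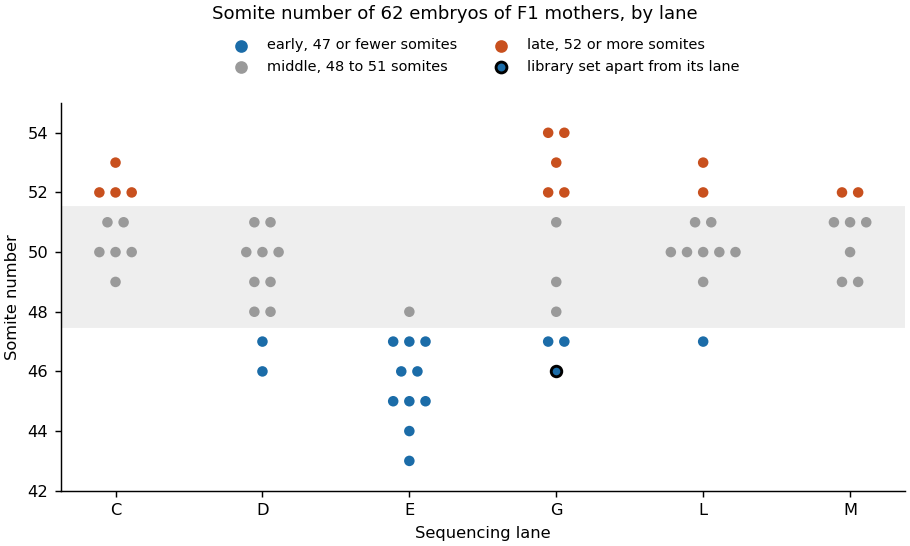
Somite number (y axis) of the 62 embryos of F1 mothers in each of 6 sequencing lanes (x axis). Each point is 1 embryo, the grey band marks the middle embryos, and the ringed point is the 46-somite embryo of lane G. Lanes G and L hold both early and late embryos, and 10 of the 16 early embryos lie in lane E.

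One early library stood apart from the other libraries of its lane. The 46-somite embryo of lane G, from litter 7, deviated from the median of all 62 libraries by a median of 0.837 per gene on the log2(RPM + 1) scale, where RPM stands for reads per 1000000 reads counted on genes. The other 10 embryos of lane G deviated by 0.266 to 0.356. Over all 62 libraries it held rank 3, after middle embryos of lane L at 0.879 and 0.860, which were kept in the fit. Among early and late embryos outside lane G the highest deviation was 0.673. Its depth of 2424224 reads was within the range of the others, but 12938 genes had at least 1 read in it, against 13382 to 14490 in the rest of the lane. The calls below are therefore given with and without this embryo.

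To ask which genes changed with stage, late embryos were compared with early ones in edgeR's quasi-likelihood test with lane as a term, and a gene was called at an adjusted p under 0.05 (Benjamini-Hochberg). Of the 9998 genes that averaged 5 RPM or more, 30 were called. The 20 genes that rose (0.2% of those tested) included the lens crystallins *Cryaa* and *Cryba1*, the plasma proteins *Alb*, *Ahsg*, *Trf* and *Serpinf2*, genes of muscle, cartilage and connective tissue (*Mylpf*, *Mustn1*, *Mia1*, *Col6a2*), and the neuronal genes *Prph* and *Npy*. The 10 genes that fell (0.1%) included *Lin28a* and the other let-7 target candidates *Igdcc3* and *Arid3b*, and also *Crabp2* and *Fignl2*. At an unadjusted p under 0.05 there were 1202 genes. With sex as a further term 14 genes were called, 12 of them among the 30. For all 30 genes both steps, from early to middle and from middle to late, went in the direction of the call. The steps add up to the contrast that gave the calls, so nothing is read from this count. In RPM without lane, the early and late medians lay in the direction of the call for 28 genes. The middle median lay between them for 24. Neither step alone gave a call in edgeR (0 genes each, with 574 and 677 at an unadjusted p under 0.05).

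The 30 calls rested to a large part on lane G. Without the 46-somite embryo of that lane, 8 genes were called, namely *Prph*, *Mustn1*, *Apoc2*, *Pnmal2*, *Cryaa*, *Crybb1* and *Cryba4* as higher (0.0698% of 10022 genes) and *Fignl2* as lower (0.00998%), and 659 passed an unadjusted p under 0.05. All 30 genes kept their direction and 6 of them were called again. Without the whole of lane G, or without litter 7, edgeR called 0 genes, with 378 and 420 at an unadjusted p under 0.05, and without litter 9, which holds 3 of the 13 late embryos, it called *Fignl2* alone. Lane L mattered as well. Without litter 10, which gave the 1 early embryo of lane L, edgeR called 4 genes, *Fignl2*, *H3f3b*, *Mustn1* and *Prph*. *Apoc2*, *Pnmal2* and *Cryaa* were then not called. Within lane G, 19 of the 20 higher genes did not overlap between the 3 early and the 5 late embryos, and 6 of the 10 lower genes did not. Since these embryos are part of the fit, nothing is read from this count beside the 5.91% and 1.37% of all tested genes that did not overlap in the same way. In both lanes that held early and late embryos 28 of the 30 genes went in the direction of the call, the exceptions being *H3f3b* and *Ppp1r16a* in 1 of the 2 lanes. These lanes are part of the fit that gave the calls, and lane L held 1 early embryo. This count is therefore no separate support for the calls.

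Somite number was also fitted as a slope over all 62 embryos, with lane, which uses the middle embryos as well. This gave 73 rising genes (0.73%) and 51 falling ones (0.51%), with 29 of the 30 genes among them. Without the 46-somite embryo of lane G there were 51 rising (0.509%) and 16 falling genes (0.16%), of which 53 were called with it and 21 were among the 30. Leaving out this 1 library thus took the rising genes from 73 to 51 and the falling ones from 51 to 16.

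**Figure D2:**
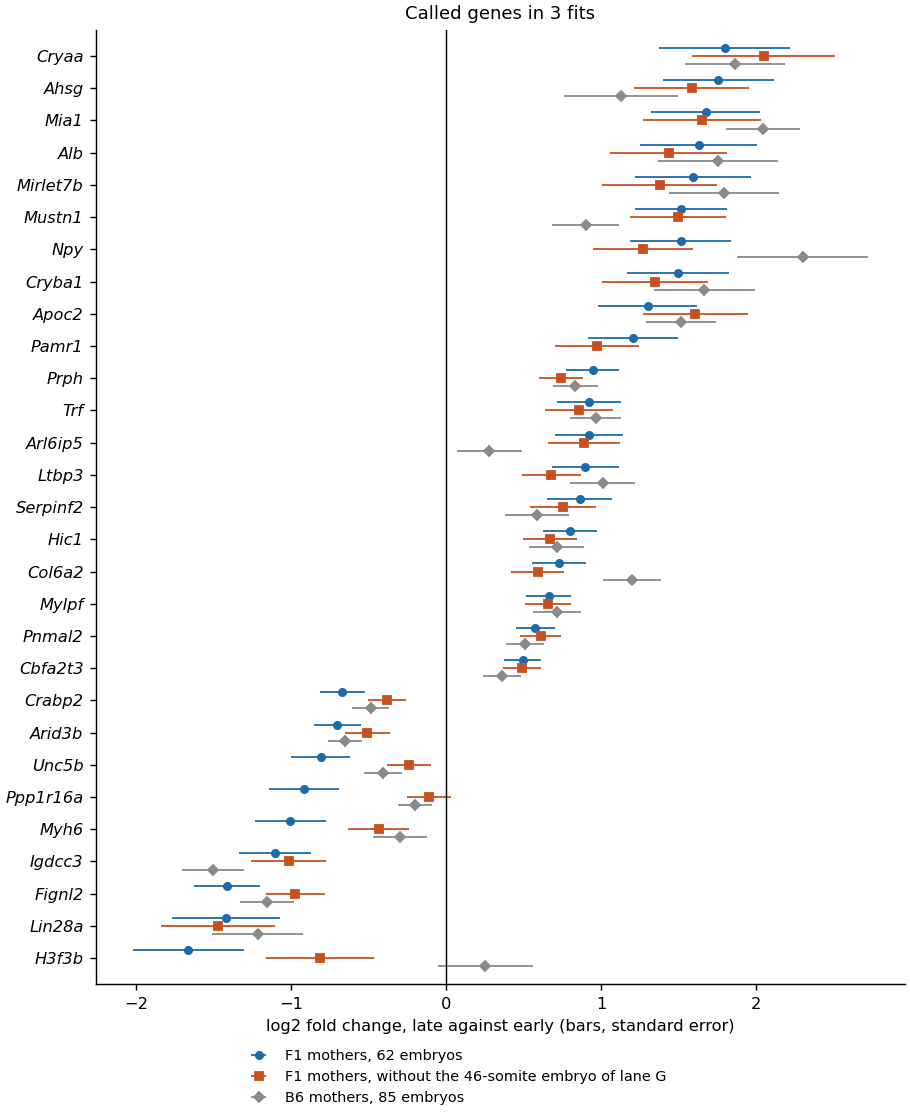
Log2 fold change between late and early embryos (x axis, with standard errors as bars) of 29 of the 30 called genes (y axis) in embryos of F1 mothers with and without the 46-somite embryo of lane G and in embryos of B6 mothers, where *Pamr1* was not tested. Without that embryo *Ppp1r16a*, *Unc5b* and *Myh6* lie nearer to 0, while *Mia1*, *Mustn1* and *Mylpf* hardly move.

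The lens crystallins, the water-soluble proteins that give the lens its transparency and refraction, showed the highest median change among the lists of marker genes with at least 6 tested members. *Cryaa* (chromosome 17 of mm9 from 31814878 to 31818667), a small heat shock protein of the lens, ranged from 0.441 to 19.3 RPM in early embryos (median 6.2), from 3.59 to 39 in middle embryos (median 18.5) and from 19.2 to 82.9 in late embryos (median 47.1). All but 1 of the 13 late embryos lay above the highest early embryo. With lane in the fit it rose 3.48-fold, a log2 change of 1.80 ± 0.42 (SE, adjusted p = 0.0385), and by 2.05 ± 0.46 without the 46-somite embryo of lane G (adjusted p = 0.0479). *Cryba1* (chromosome 11 from 77532117 to 77538785), a beta-crystallin, had a median of 4.49 RPM in early embryos (1.52 to 10.4) and of 16.4 in late embryos (9.57 to 23.1). It rose by 1.49 ± 0.33 on the log2 scale (adjusted p = 0.0201), and by 1.35 ± 0.34 without that embryo (adjusted p = 0.105).

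The other beta-crystallins had values of the same sign. *Crybb1* lay between 0.441 and 13.6 RPM in early embryos (median 2.75) and between 5.94 and 33.8 in late embryos (median 22.6). The highest early value was that of the 46-somite embryo of lane G, the next one being 7.73, and the log2 change was 1.41 ± 0.44 with it (adjusted p = 0.153) and 2.12 without it (adjusted p = 0.0432). *Crybb3* and *Cryba4* had log2 changes of 1.30 ± 0.39 and 0.95 ± 0.37 (adjusted p = 0.133 and 0.264), and 1.71 each without that embryo (adjusted p = 0.0938 and 0.0401). In all, 2 of the 6 crystallins tested were called, 5 lay above 0 and the median log2 change was 1.36, beside a median of -0.01 over all genes tested. Without the library that stands apart 3 were called and the median was 1.71. The 1 crystallin below 0 was *Cryab* at -0.03, a stress protein that heart and muscle express too. The other 10 crystallins of the list, most of them gamma-crystallins of the later lens fibres, had a mean under 5 RPM and were not tested.

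**Figure D3:**
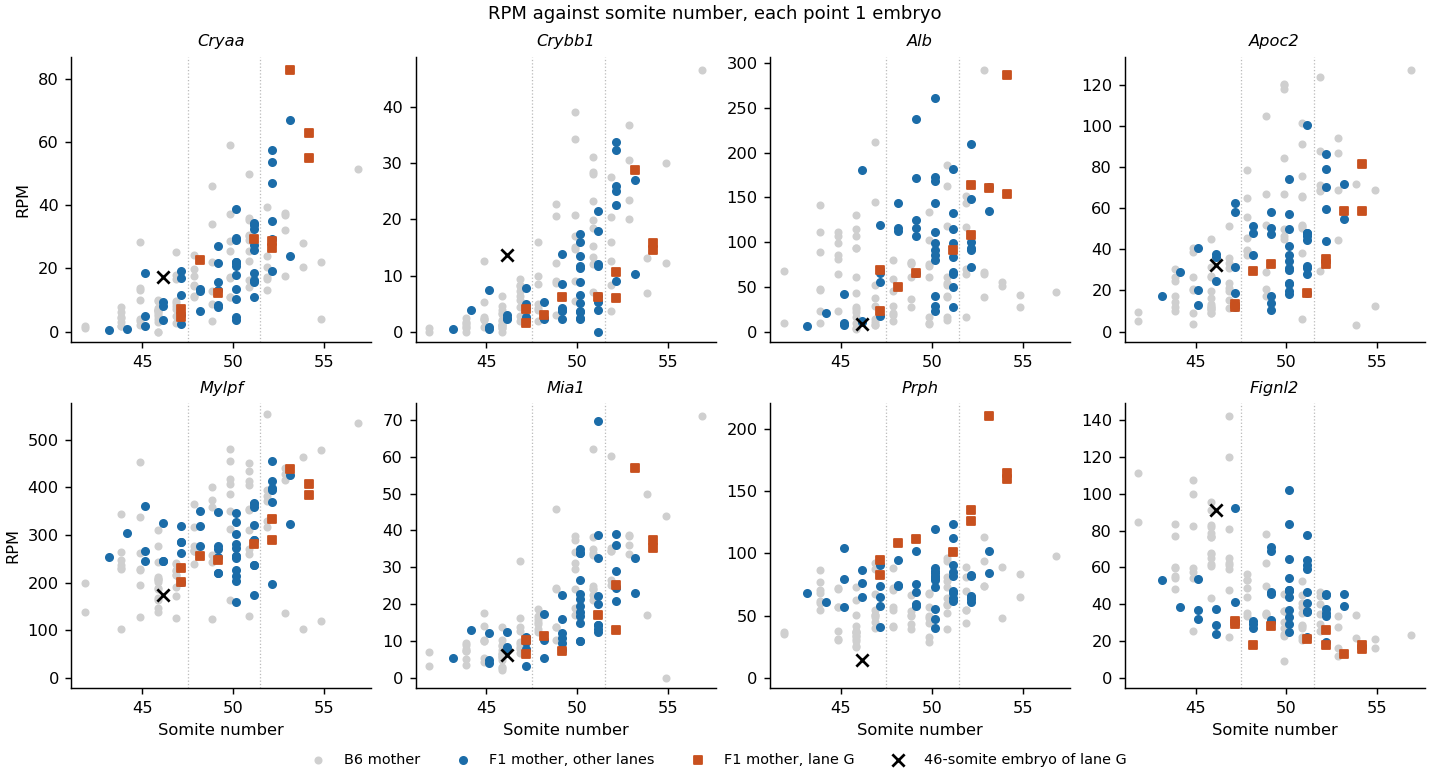
RPM (y axes, linear) against somite number (x axes) for 8 genes, each point 1 embryo, with points of B6 mothers moved slightly to the left and those of F1 mothers to the right. Dotted lines mark the limits of the early and late groups. *Cryaa*, *Crybb1*, *Alb*, *Apoc2*, *Mylpf*, *Mia1* and *Prph* are higher and *Fignl2* lower in the late embryos of lane G than in its early ones, apart from the 46-somite embryo of that lane, which lies high for *Crybb1*.

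Genes of secreted liver proteins had changes of the same sign, although few were called. Of 23 hepatocyte genes tested, all 23 lay above 0 with a median log2 change of 0.73, and 3 were called, *Alb*, *Ahsg* and *Trf*. *Alb* (chromosome 5 from 90889915 to 90905629), which encodes albumin, the main plasma protein, had a median of 21.5 RPM in early embryos (6.61 to 181) and of 148 in late embryos (72.3 to 286). Early embryos spread widely and overlapped with the late ones, only 2 of which lay above the highest early value. *Alb* rose by 1.63 ± 0.38 on the log2 scale (adjusted p = 0.0341). Without the 46-somite embryo of lane G, which had 8.25 RPM, the log2 change was 1.44 ± 0.38 (adjusted p = 0.124).

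*Ahsg* (chromosome 16 from 22892115 to 22899511), which encodes fetuin-A, an inhibitor of mineral deposition in plasma, was at 0 to 8.59 RPM in early embryos (median 3.88) and at 3.46 to 22.6 in late ones (median 13.6). It rose by 1.76 ± 0.36 (adjusted p = 0.019, and 0.0606 without that embryo). *Trf*, which encodes the iron carrier transferrin, went from a median of 179 RPM (94.0 to 395) to one of 292 (191 to 416), with a single late embryo above the highest early one. Its log2 change was 0.92 ± 0.21 (adjusted p = 0.0229, and 0.105 without the embryo). In the slope fit 7 hepatocyte genes were called, these 3 and *Hpx*, *Ttr*, *Ambp* and *F2*, which encode the heme carrier hemopexin, transthyretin, a carrier of thyroid hormone, the precursor of alpha-1-microglobulin, and prothrombin. Without the 46-somite embryo of lane G 6 were called in the slope fit and 0 in the comparison of stages (edgeR), where again all 23 lay above 0 (median 0.74). *Hpx*, for example, had a mean of 10.6 ± 4.94 RPM in early and of 15.4 ± 6.86 in late embryos (SD).

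Besides the list, *Serpinf2* (chromosome 11 from 75245234 to 75253093), the plasmin inhibitor of plasma, and *Apoc2* (chromosome 7 from 20256928 to 20266772), the apolipoprotein that activates lipoprotein lipase, rose as well. *Serpinf2* had a median of 46.1 RPM in early (17.3 to 57.5) and of 65.8 in late embryos (38.5 to 100.8), a log2 change of 0.86 ± 0.21 (adjusted p = 0.0462, and 0.193 without the embryo of lane G). *Apoc2* had a median of 26.6 RPM in early (11.9 to 62.7) and of 58.8 in late embryos (33 to 86.2), with a log2 change of 1.30 ± 0.32 (adjusted p = 0.0468). It was one of the calls that were kept without that embryo, at 1.61 ± 0.34 (adjusted p = 0.0319). Over 21 fits that left out a lane, a litter or that embryo, *Apoc2* kept its direction but was not called in 16. The visceral endoderm of the yolk sac makes many of the same proteins. The 12 markers listed for it, *Apoc2* among them, summed to 24.3 to 77.3 RPM in early embryos (median 43.1) and 48.4 to 141 in late ones (median 84.6), with *Gkn2* at 0 throughout. *Apoc2* itself, with its medians of 26.6 and 58.8 RPM, held much of this sum. Only 3 of the 12 were tested, *Apoc2* being the 1 called and the others having log2 changes of 0.40 and -0.24. Of 15 markers of placenta and decidua 9 were at 0 in late embryos, and the sum of these 15 stayed at or below 11.2 RPM in every embryo. The part of yolk sac RNA in the liver genes was not tested. In whole embryos more cells of a type and more RNA per cell cannot be told apart, here and for the other tissues below.

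Skeletal muscle genes lay mostly above 0 and 1 was called. *Mylpf* (chromosome 7 from 134355122 to 134357812), the regulatory light chain of fast skeletal myosin, had a median of 259 RPM in early embryos (174 to 361), of 273 in middle ones (160 to 368) and of 394 in late ones (196 to 455). The lowest late embryo overlapped with the early ones, and 9 of the 13 lay above all of them. It rose 1.58-fold, by 0.66 ± 0.15 on the log2 scale (adjusted p = 0.0201, and 0.0529 without the 46-somite embryo of lane G at the same log2 change of 0.66). *Mustn1* (chromosome 14 from 31692443 to 31694794), a small nuclear protein of developing muscle and skeleton, had a median of 2.87 RPM in early (0.441 to 4.88) and of 8.97 in late embryos (3.63 to 19.8). It rose by 1.51 ± 0.30 (adjusted p = 0.0102), and by 1.49 ± 0.31 without that embryo (adjusted p = 0.0319). Its 2.86-fold change is among the steepest of the genes that stayed called.

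Of 21 skeletal muscle genes tested 17 lay above 0, with a median of 0.41 (0.43 without the embryo of lane G). The slope fit called 4 of them, *Mylpf*, *Tnni2*, *Tmem8c* and *Myog*, that is the myosin light chain, the inhibitory subunit of fast troponin, the membrane protein needed for the fusion of myoblasts, and the transcription factor myogenin. Without that embryo *Tnni2* had a slope with an adjusted p of 0.0488, *Tmem8c* of 0.105 and *Myog* of 0.164. The slope fit without it again called 4 skeletal muscle genes as higher, so other members of the list were called in their place. *Tnni2* went from a median of 16.3 RPM (8.12 to 31.9) to 28.2 (9.09 to 44.5), with a log2 change of 0.79 ± 0.22 in the comparison of stages (adjusted p = 0.0926). *Tnnt3*, the fast troponin T, had a log2 change of 0.94 ± 0.24 (adjusted p = 0.0553). The 4 muscle genes below 0 were *Pax3* at -0.61, which marks muscle progenitors, and *Cdh15*, *Des* and *Tnni1* between -0.07 and 0.

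Among genes of the skeleton and the connective tissue, *Mia1* (chromosome 7 from 27953449 to 27966176), a protein that cartilage cells secrete, separated the groups completely. It lay between 3.12 and 12.9 RPM in the 16 early embryos (median 8.02) and between 13.1 and 56.9 in the 13 late ones (median 28.9), and was the only called gene in which every late embryo was above every early one. Over all genes tested this held for 0.05%, 5 genes, the others being *H13*, *Nsg1*, *Tmem130* and *Cpn1*, named here after their values were seen, and for 0% in the other direction. *Mia1* rose 3.19-fold, by 1.68 ± 0.35 (adjusted p = 0.0201, and 0.0529 without the 46-somite embryo of lane G, with a log2 change of 1.65). *Col9a3* and *Matn4*, which encode a chain of the cartilage collagen IX and a matrilin, were called in the slope fit (adjusted p = 0.0136 and 0.00804, and 0.0669 and 0.0363 without that embryo). *Matn4* went from a median of 2.71 RPM (0.419 to 12.3) to 9.75 (4.85 to 20.8). The list as a whole did not stand out in embryos of F1 mothers, with 7 of 11 cartilage genes above 0 and a median of 0.07, and *Col2a1* and *Sox9*, the main collagen and the master regulator of cartilage, were at 0.04 and -0.20. In embryos of B6 mothers 9 of 12 cartilage genes lay above 0, with a median of 0.52, and 5 were called as higher.

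*Col6a2* (chromosome 10 from 76058507 to 76086375), a chain of collagen VI, had a median of 33.9 RPM in early (19.5 to 73.9) and of 62.6 in late embryos (39.7 to 160), a log2 change of 0.72 ± 0.17 (adjusted p = 0.0424, and 0.234 without the embryo of lane G). Of 17 genes of bone, tendon and connective tissue 14 lay above 0, with a median of 0.14. *Hic1* (chromosome 11 from 74978067 to 74983021), a transcriptional repressor found in mesenchyme, had a median of 41.4 RPM in early (17.1 to 70.4) and of 89.3 in late embryos (67.8 to 118), and 12 of 13 late embryos exceeded all early ones. Its log2 change was 0.80 ± 0.18 (adjusted p = 0.0201, and 0.118 without that embryo). *Ltbp3* (chromosome 19 from 5740904 to 5758532), which binds latent TGF-beta in the matrix, and *Pamr1* (chromosome 2 from 102390169 to 102483198), a secreted protein with a protease-like domain, rose by 0.90 ± 0.22 and 1.21 ± 0.29 (adjusted p = 0.0439 and 0.0462). Without that embryo neither was called (adjusted p = 0.193 and 0.18).

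In the nervous system the changes were those of single genes. *Prph* (chromosome 15 from 98885605 to 98889409), the intermediate filament peripherin of sensory, motor and autonomic neurons, had a median of 70.9 RPM in early embryos (14.4 to 104), of 80.2 in middle ones (40.3 to 124) and of 84.6 in late ones (61.3 to 211). The medians are close, and the levels differed between lanes. In lane G the early embryos had 14.4, 82.5 and 94.6 RPM, the 3 middle ones 101.2 to 111.9 and the 5 late ones 126, 135, 160, 165 and 211. With lane in the fit *Prph* rose 1.92-fold, by 0.94 ± 0.17 (adjusted p = 0.004), and by 0.74 ± 0.14 without the 46-somite embryo, which had the 14.4 RPM (adjusted p = 0.017). It was also called with litter as a random effect in limma voom, with that embryo (adjusted p = 0.00111) and without it (adjusted p = 0.0194). Without a lane term its adjusted p was 0.173.

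*Npy* (chromosome 6 from 49772709 to 49779506), which encodes neuropeptide Y, a transmitter of sympathetic neurons among others, had a median of 8.06 RPM in early (0.814 to 20.8) and of 15.4 in late embryos (5.35 to 83.6). It rose by 1.51 ± 0.33 (adjusted p = 0.0201, and 0.105 without the embryo of lane G). *Neurod2*, a transcription factor of differentiating neurons, was called in the slope fit (adjusted p = 0.00781, and 0.0038 without that embryo), with a median of 5.01 RPM in early (1.25 to 9.92) and of 13.8 in late embryos (5.98 to 20.4). It was the 1 member above 0 of 9 neuronal bHLH factors, whose median was -0.26. *Neurog2*, a proneural factor of progenitors, lay at -1.15 ± 0.37 and *Olig2*, which marks motor neuron and oligodendrocyte progenitors, at -0.71 ± 0.25 (adjusted p = 0.172 and 0.204).

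Genes of the neuronal cytoskeleton and of synapses lay above 0 in 15 of 22 and 16 of 21 cases, with medians of 0.22 and 0.27. Beyond *Prph* the slope fit called *Mapt* (adjusted p = 0.0227), the microtubule protein tau, with a median of 173 RPM in early (79.2 to 215) and of 265 in late embryos (177 to 354), *Stmn4* (adjusted p = 0.0458), a stathmin, and the vesicle genes *Rab3a* and *Slc32a1* (adjusted p = 0.00448 and 0.021), the last of which encodes the transporter that loads GABA and glycine. Of these *Rab3a* and *Slc32a1* were called without the 46-somite embryo of lane G too (adjusted p = 0.0319 and 0.0488). *Nes* and *Sox2*, which mark neural progenitors, fell in the slope fit (adjusted p = 0.0247 and 0.0455) but not without that embryo (adjusted p = 0.172 and 0.156). The median of the 17 progenitor and Notch genes was -0.17 with lane and 0.38 without it, so its direction depended on the lane term.

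**Figure D4:**
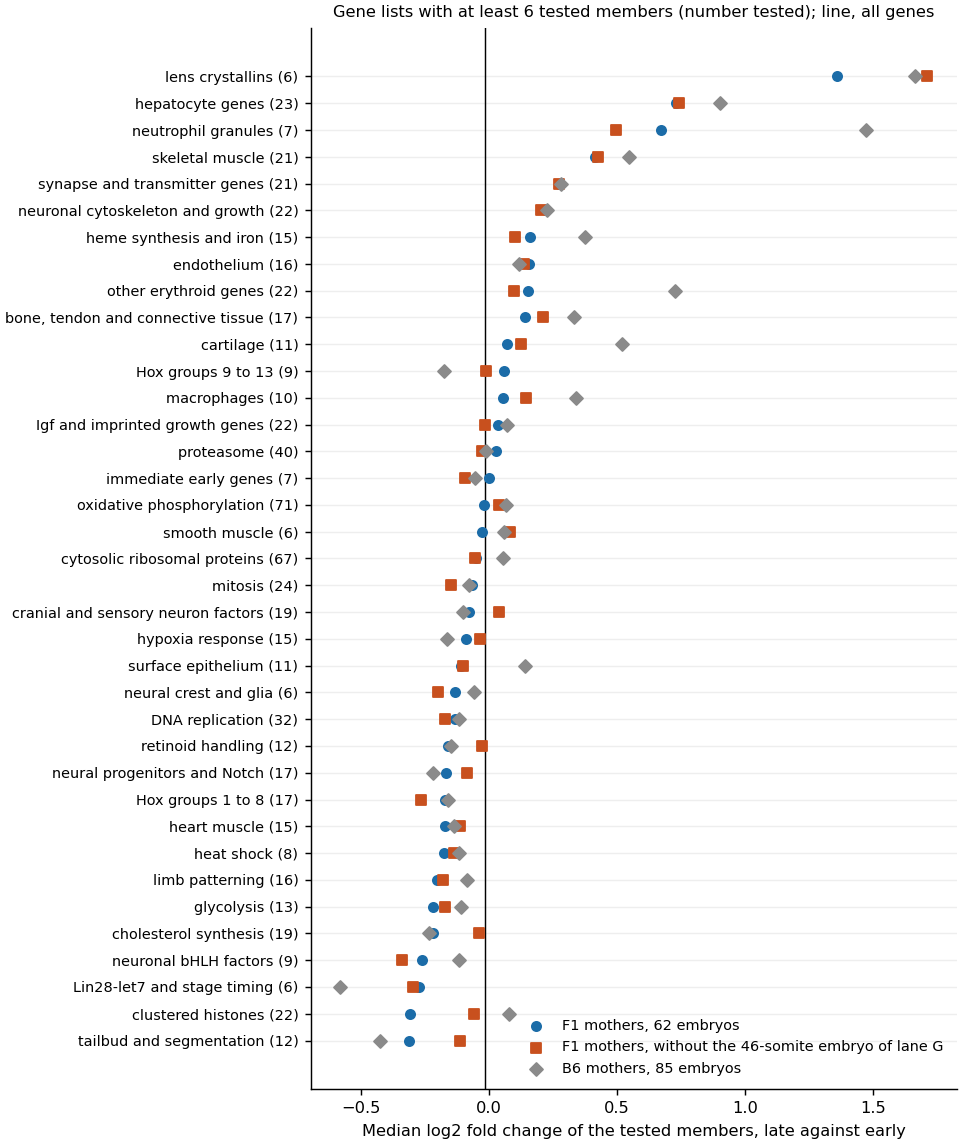
Median log2 fold change between late and early embryos (x axis) of the tested members of each gene list with at least 6 of them (y axis, number tested in parentheses). The vertical line is the median of all genes tested in embryos of F1 mothers, -0.01. Lens crystallins and hepatocyte genes lie farthest to the right in embryos of F1 mothers, with and without the 46-somite embryo of lane G.

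Among the genes that fell, *Fignl2*, which encodes a fidgetin-like ATPase, had the smallest p. Its medians hardly differed, with 34.4 RPM in early embryos (23.8 to 92.4) and 33.3 in late ones (13.1 to 45.7), and its level differed between lanes. In lane G the mean was 50.4 RPM over 3 early and 18.1 over 5 late embryos, in lane L it was 92.4 in the 1 early and 45.3 over 2 late embryos, and in lane C it was 60.1 over 6 middle and 34.7 over 4 late embryos. The 46-somite embryo of lane G had 91.2 RPM and the other 2 early ones of the lane 29 and 31. With lane in the fit *Fignl2* fell by 1.42 ± 0.21 on the log2 scale, 2.67-fold (adjusted p = 7.54e-05), and by 0.97 ± 0.19 without that embryo (adjusted p = 0.017). It was also called with litter as a random effect, with and without the embryo (adjusted p = 0.00111 and 0.0194).

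*Crabp2* (chromosome 3 from 87752588 to 87757298), which carries retinoic acid to its nuclear receptor, had a median of 589 RPM in early embryos (475 to 1204) and of 432 in late ones (252 to 551), and 10 of 13 late embryos lay below the lowest early one. It fell by 0.67 ± 0.15 (adjusted p = 0.0201). Its highest value, 1204 RPM, was that of the 46-somite embryo of lane G, and the highest of the other early embryos was 719. Without it the log2 change was -0.38 ± 0.12 (adjusted p = 0.395). The other 11 genes of retinoid handling that were tested gave no call.

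*Lin28a*, *Igdcc3* and *Arid3b* fell, and the host row of let-7b rose. *Lin28a* (chromosome 4 from 133559245 to 133574756) was low, with 2.52 to 15.5 RPM in early embryos (median 5.95), 1.32 to 13.2 in middle ones (median 4.29) and 1.47 to 4.85 in late ones (median 2.64), and 5 late embryos lay below the lowest early one. It fell 2.68-fold, by 1.42 ± 0.35 (adjusted p = 0.0462), and the log2 change was -1.47 ± 0.37 without the 46-somite embryo of lane G (adjusted p = 0.1). *Igdcc3* (chromosome 9 from 64988961 to 65033664), a membrane protein of the immunoglobulin superfamily, went from a median of 164 RPM (80.8 to 492) to 82.5 (57.3 to 114). It fell by 1.11 ± 0.23 (adjusted p = 0.0201, and 0.0757 without that embryo at a log2 change of -1.02). *Arid3b* (chromosome 9 from 57638160 to 57684600), a DNA-binding protein with an AT-rich interaction domain, went from a median of 87.5 RPM (55.8 to 127) to 65.5 (38 to 87.8) and fell by 0.70 ± 0.15 (adjusted p = 0.0201, and 0.193 without it at -0.51).

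Of 13 let-7 family genes with a mature sequence in RefSeq (GRCm38.p6), 1 passed the minimum of 5 RPM. *Mirlet7b* (chromosome 15 from 85537749 to 85537833) had 1113 reads in 61 of the 62 embryos. It lay between 0 and 11.2 RPM in early embryos (median 3.81) and between 5.28 and 21.2 in late ones (median 11.4), and rose by 1.59 ± 0.38 (adjusted p = 0.0385, and 0.143 without the 46-somite embryo of lane G, the 1 embryo at 0). In lane G its 3 early embryos had 0, 2.45 and 3.26 RPM and its 5 late ones 5.28, 8.72, 8.76, 11.4 and 12.2, with no overlap. The libraries were made from polyadenylated RNA, so these reads come from a longer transcript over the annotated hairpin and not from the mature microRNA. *Mirlet7i* had 138 reads, with 21 in early, 67 in middle and 50 in late embryos, and each other family gene listed had 0 to 21 reads in all. The family shares its seed, bases 2 to 8, which is shown in capitals for the 2 members with the most reads because it sets which messages they pair with.
mmu-let-7b-5p: uGAGGUAGuagguugugugguu
mmu-let-7i-5p: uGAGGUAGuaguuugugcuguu

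The reverse complement of the seed, CTACCTC, was searched on the transcribed strand of the 3′ UTRs in the GENCODE annotation of mm9, which held one for 9692 of the 9998 genes tested. It occurred at least once in 10.5% of them. *Lin28a* and *Igdcc3* held 2 matches each and *Arid3b* held 1, each followed by an A, which 3.4% of genes had. The sites are given from the 5′ to the 3′ end of the message strand, with the match in capitals, because they are the stretches of the 3 called genes with such a match and an A that fell. Of the called genes that rose, *Hic1* held 1 match and *Cbfa2t3* held 2, none of them followed by an A. The called genes *Fignl2*, *Pnmal2* and *Mirlet7b* had no 3′ UTR in the annotation used and were not searched.
*Lin28a*, chr4:133561104-133561126, minus strand: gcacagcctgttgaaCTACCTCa
*Lin28a*, chr4:133560466-133560488, minus strand: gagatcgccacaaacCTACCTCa
*Igdcc3*, chr9:65033514-65033536, plus strand: tgtgactctcagcacCTACCTCa
*Igdcc3*, chr9:65033594-65033616, plus strand: agcccgaaagcactcCTACCTCa
*Arid3b*, chr9:57640371-57640393, minus strand: actgctcaccaagtcCTACCTCa

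A match of 7 letters describes the sequence and does not show that a site is used. The median log2 change was -0.02 in the 8675 genes without a match, -0.01 in the 900 genes with 1, -0.07 in the 102 genes with 2, and -0.07 in the 333 genes with a match followed by an A. Without the 46-somite embryo of lane G these medians were -0.01, -0.01, -0.09 and -0.05. The 15 genes with 3 or more matches, which are few, had a median of -0.21, and of -0.18 without that embryo, and 0 of them were called in edgeR. In embryos of B6 mothers the medians for 0, 1, 2 and 3 or more matches were -0.001, -0.001, -0.016 and -0.045. There 2 of 15 genes with 3 or more matches were called as lower, beside 89 of all 9761 genes tested with a 3′ UTR. The calls as lower were 75 of 8735 genes without a match, 10 of 912 with 1 and 2 of 99 with 2. The median length of the 3′ UTR rose with the matches, from 1051 to 2060, 3141 and 4285 bases, and the part of length was not tested. Of the genes listed for the pathway, *Lin28a* was the 1 called of 6 tested, and their median was -0.27. *Hmga2*, a chromatin protein that let-7 represses, had 4 matches and a log2 change of -0.23 ± 0.26 (adjusted p = 0.757).

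**Figure D5:**
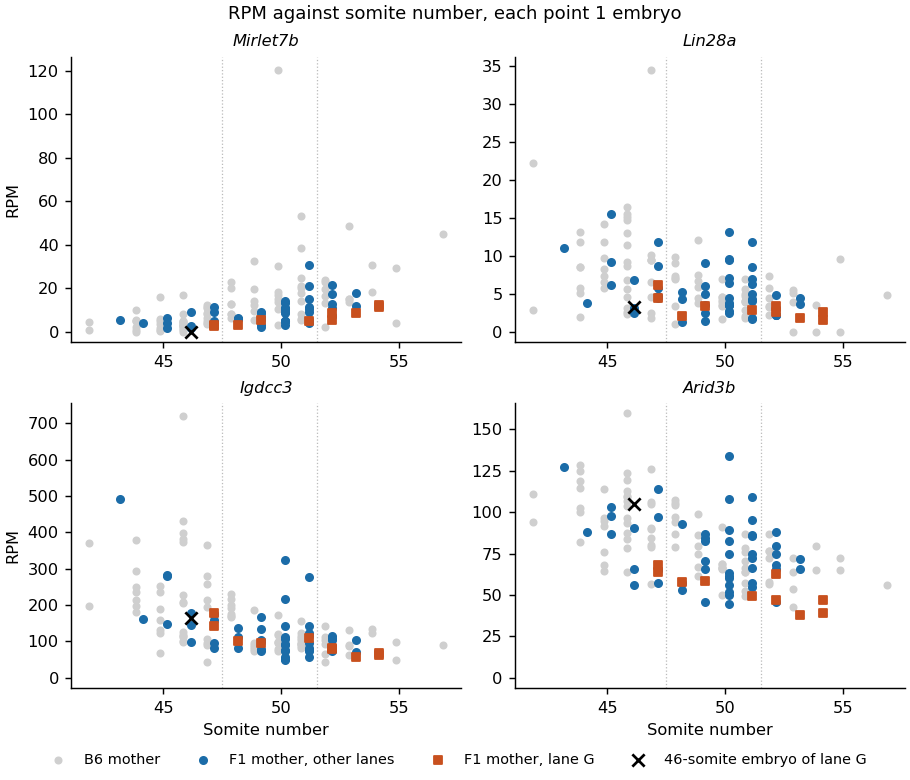
RPM (y axes, linear) against somite number (x axes) for *Mirlet7b*, *Lin28a*, *Igdcc3* and *Arid3b*, each point 1 embryo, with points of B6 mothers moved slightly to the left and those of F1 mothers to the right. *Mirlet7b* is higher and *Igdcc3* and *Arid3b* are lower in all 5 late embryos of lane G than in its 3 early ones.

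Another 4 genes that fell changed with the 46-somite embryo of lane G. *Myh6* (chromosome 14 from 55560758 to 55585764), the myosin heavy chain of the atria, had 494 RPM in it and 59.5 to 142 in the other early embryos, beside 62.8 to 141 in late embryos. Its log2 change went from -1.01 ± 0.23 (adjusted p = 0.0331) to -0.44 ± 0.20 without it (adjusted p = 0.69). *Ppp1r16a*, a regulatory subunit of protein phosphatase 1, had 458 RPM in it, and the log2 change went from -0.92 ± 0.23 to -0.12 ± 0.14 (adjusted p = 0.0462 and 0.998). *Unc5b*, a netrin receptor of axons and vessels, had 178 RPM in it, and the log2 change went from -0.81 ± 0.19 to -0.24 ± 0.14 (adjusted p = 0.0385 and 0.839).

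*H3f3b*, one of the genes for histone H3.3, depended on lanes. Its means were 301 to 555 RPM in the middle and late embryos of lanes L and M, and 14.1 to 60.9 in the stage groups of the other lanes. Lanes L and M shared a flow cell that the other lanes did not, so lane and flow cell cannot be told apart here. Its log2 change of -1.66 ± 0.36 (adjusted p = 0.0201) was -0.82 ± 0.35 without the 46-somite embryo (adjusted p = 0.643), and 0.74 when lane was left out. *H3f3b* has many near-identical copies in the genome, and reads that fitted several places were discarded by the authors, so its counts are uncertain. *Rps20*, a ribosomal protein gene of the same kind, had the largest slope of the falling genes and ranged from 9.76 to 1774 RPM in early and from 2.94 to 681 in late embryos.

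The remaining 3 genes that rose were *Pnmal2*, *Arl6ip5* and *Cbfa2t3*. *Pnmal2* (chromosome 7 from 17530031 to 17532427), a gene of the paraneoplastic antigen family, had a median of 35.8 RPM in early (22.9 to 50.3) and of 70.9 in late embryos (50.0 to 108), and 12 of 13 late embryos exceeded all early ones. Its log2 change was 0.57 ± 0.13 (adjusted p = 0.0201), and 0.61 ± 0.13 without the 46-somite embryo of lane G (adjusted p = 0.035). *Cbfa2t3*, a corepressor of blood progenitors, and *Arl6ip5*, a protein of the endoplasmic reticulum, rose by 0.49 ± 0.12 and 0.92 ± 0.22 (adjusted p = 0.0439 and 0.0424), and neither was called without that embryo (adjusted p = 0.103 and 0.118).

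No globin was called in the comparison of stages in embryos of F1 mothers. In the slope fit without the 46-somite embryo of lane G *Hbb-bh1* was called as lower (adjusted p = 0.0488, and 0.0824 with it). The embryonic globins *Hbb-bh1*, *Hbb-y* and *Hba-x* summed to 59050 to 185609 RPM in early embryos (median 124887) and to 31906 to 87410 in late ones (median 63656). Their log2 changes with lane were -0.87 ± 0.34, -0.61 ± 0.28 and -0.66 ± 0.27, and none passed the test (adjusted p = 0.275, 0.374 and 0.295). The adult globin row *Beta-s* had a median of 2409 RPM in early (212 to 7183) and of 4746 in late embryos (2242 to 15415), at 1.22 ± 0.50 (adjusted p = 0.294). *Hbb-b1* and *Hbb-b2* held the same counts, with a log2 change of 0.56 ± 0.29 (adjusted p = 0.435). *Hba-a1* and *Hba-a2* had 49.6 RPM at most in these embryos. Both pairs are near-identical copies, and reads with several similar hits were discarded by the authors, so the counts of all 4 are uncertain. In embryos of B6 mothers 3 of the 5 adult globin rows, which include these 4, were called as higher, with a median log2 change of 1.67. Of the 3 embryonic globins 0 were called there in edgeR, with a median of -0.42. Over 22 other erythroid genes the median was 0.15 with 0 called (edgeR).

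Among further cell types, 5 of 7 neutrophil granule genes lay above 0, with a median of 0.67 (0.49 without the 46-somite embryo of lane G) and 0 called in edgeR. Macrophage markers summed to a median of 403 RPM in early and 528 in late embryos, and endothelial ones to 623 and 702, without a lane term. With lane in the fit 6 of 10 macrophage genes lay above 0 (median 0.06) and 12 of 16 endothelial ones (median 0.16). In either list 0 were called in edgeR. Heart muscle genes had 3 of 15 above 0 (median -0.17), with *Actc1*, an actin of heart and young skeletal muscle, at 0.74 ± 0.25 (adjusted p = 0.189, and 0.0327 in the slope fit, where it was 0.14 without the 46-somite embryo of lane G). Surface epithelium had 5 of 11 above 0. Its keratin *Krt17* rose and *Krt18* and *Krt19* fell in the slope fit (adjusted p = 0.0484, 0.0292 and 0.0433), none of them without the 46-somite embryo of lane G (0.0701, 0.298 and 0.278). The tailbud and segmentation genes, which form the somites themselves, had a median of -0.31 over 12 genes with 0 called, and the median was 0.24 without a lane term, so no direction can be given for them in embryos of F1 mothers. In embryos of B6 mothers 2 of 12 lay above 0, with a median of -0.43, and 2 were called as lower. The 32 DNA replication, 24 mitosis, 67 ribosomal protein, 71 oxidative phosphorylation and 40 proteasome genes gave 0 calls in the comparison of stages, with medians between -0.13 and 0.03.

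Because the embryos segregate Cast alleles, each gene's own genotype was added to the model for the 80 genes with the smallest p. Of the 30 called genes 21 remained called, 7 did not, and *Arid3b* and *Pamr1* could not be fitted. The change was largest for *Arl6ip5*, for which 4 of 16 early and 9 of 13 late embryos were heterozygous, and whose log2 change went from 0.92 to 0.48 (adjusted p = 0.234). The others included *Mia1*, *Ltbp3*, *Lin28a*, *Ppp1r16a* and *Apoc2*, with adjusted p from 0.0511 to 0.119.

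The alleles were also followed separately in heterozygous embryos, with the authors' votes scaled to RPM. For 17 of the 30 genes each allele had a mean of at least 1 RPM of votes in at least 1 of the stages, and each stage had at least 3 heterozygous embryos. Both moved in the direction of the call for 14. *Crabp2* went from 272 ± 86.0 to 149 ± 51.9 on the B6 allele and from 227 ± 70.6 to 115 ± 33.6 on the Cast allele (SD, 6 early and 5 late embryos), and *Trf* went from 43.4 ± 11.8 to 65.9 ± 19.2 and from 37.2 ± 8.51 to 65.1 ± 17.9 (6 and 8 embryos). For *Unc5b* the B6 allele alone moved with the call, and for *H3f3b* and *Arid3b* neither did, *Arid3b* having a mean of at most 2.06 RPM. These values carry no lane term and no test. The votes come from reads of the same embryos that gave the calls, so the 14 genes are no separate support for them.

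Embryos of B6 mothers lay in other lanes and litters, apart from 1 middle embryo in lane M, and gave a second look at the same genes. In them 264 genes rose (2.62% of 10066) and 90 fell (0.894%). Of the 29 genes of the 30 that could be tested, 28 had the same direction, against 65.0% of the 9817 genes tested in both. In the same direction 22 were called, which is 73.3% of the 30 and 6.2% of the 354. *Mia1* had a log2 change of 2.04 ± 0.24 there (adjusted p = 2.93e-09), *Cryaa* of 1.86 ± 0.32 (4.21e-05), *Alb* of 1.75 ± 0.39 (0.00209), *Igdcc3* of -1.50 ± 0.20 (1.11e-07), *Fignl2* of -1.16 ± 0.17 (1.83e-06), *Lin28a* of -1.22 ± 0.29 (0.00556) and *Mirlet7b* of 1.79 ± 0.36 (0.000503). The 7 that were tested but not called were *Ahsg*, *Serpinf2*, *Arl6ip5*, *Cbfa2t3*, *Myh6*, *Ppp1r16a* and *H3f3b*, the last of which lay at 0.25 ± 0.31, opposite to its change in embryos of F1 mothers.

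Several lists that gave few calls in embryos of F1 mothers gave more in those of B6 mothers. These were lens crystallins with 8 of 9, hepatocyte genes with 17 of 22, skeletal muscle with 8 of 21, other erythroid genes with 11 of 22 and neutrophil granule genes with 6 of 8 called as higher. Adult globins, with 3 of 5, and cartilage genes, with 5 of 12, were among these lists too. The difference between the mothers was tested itself, as the interaction of stage and mother. It gave 0 calls among 10040 genes in edgeR, with 413 at an unadjusted p under 0.05, and 0 in limma voom with litter as a random effect (324). For *Cryaa* the log2 change with F1 mothers minus that with B6 mothers was -0.04 ± 0.51, and for *Alb* it was -0.10 ± 0.56, and these standard errors leave room for differences of either sign.

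Litters are separate pregnancies, so the litter means of 194 named genes were set against the mean somite number of the 12 litters. These genes were named mostly by the rank of their p in the stage comparison of the same embryos. Their adjusted p over litters is therefore no separate support for the calls. Spearman's rho passed a Benjamini-Hochberg adjusted p under 0.05 for 12 genes (permutation test, 100000 resamples), and for 12 without the 46-somite embryo of lane G. It was highest for *Cryaa*, with rho = 0.965 (permutation p = 2e-05, adjusted 0.00388) and Pearson's r = 0.873 (permutation p = 0.00031, adjusted 0.0239). Without the 2 litters farthest from the median somite number, litters 1 and 2, r was 0.911. The other crystallins *Crybb1*, *Cryba1* and *Crybb3* had rho of 0.902, 0.853 and 0.846, *Hic1* 0.895, *Mia1* and *Pnmal2* 0.874 each, *Tnnt3* 0.853, *Neurod2* and *Actc1* 0.832 each, *Krt17* 0.811 and *Crabp2* -0.818 (permutation p from 0.00019 to 0.00217, adjusted 0.0149 to 0.0351). Without the 2 litters 6 genes passed, *Cryaa*, *Cryba1*, *Crybb3*, *Cryba4*, *Tnnt3* and *Mylpf*. Lane is not taken out of these means, and each litter lay in 1 or 2 lanes, so that litter and lane cannot be told apart in them.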

How the data were processed

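Counts of 3SEQ reads, 3′-biased reads of polyadenylated RNA, were deposited by the authors per RefSeq gene, after mapping with Bowtie 2 to mm9 and to a Cast version of it and after reads with several similar hits had been discarded; they are raw and not normalized. The authors also deposited votes per allele, estimated counts that need not be whole, and genotype codes. Of the 168 N2 columns, 8 whose labels name no mother were not used. Groups, somites, litters and lanes came from the labels. Counts were scaled to RPM by the 22033 genes' total. The test was edgeR 4.0.16 (TMM, glmQLFit and glmQLFTest, R 4.3.3) on genes that averaged 5 RPM or more, with 3 stage groups and lane. limma 3.58.1 (voom) and DESeq2 1.42.0 were alternatives. Litter correlations used scipy 1.17.1. Embryos are separate samples, but litter mates share a mother. At the median depths a gene at 5 RPM has few reads per embryo, so single low values are imprecise. The members, the 47 gene lists and the design were chosen with earlier results of these data known. Named genes were the 12 with the smallest p per direction (at least 20 RPM, same direction in lane G), up to 4 members per list, the globins, and all genes called, of which 1 is not reported here; the last were added after the calls were seen. Positions are from GENCODE for mm9 where strand and chromosome matched. No pair of embryos of a stage looked like 1 library (lowest chi-square per gene 2.79 over 726 pairs). The tests were tested on simulated data.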

Additional observations from a re-analysis of the deposited data

How the results depend on the processing

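The 30 calls (20 higher, 10 lower) depended on the processing. The count was 122 with DESeq2 (48 higher, 74 lower), 48 with RLE scaling (19 and 29), 45 with library size alone (41 and 4), 375 without a lane term, 51 with early and late embryos only, 1 in lane G only (*Igdcc3*), 150 at limits of 46 and 53 somites, 14 with sex as a term, 124 with somite number as a slope, and 0 with reads summed by litter (edgeR, 691 at an unadjusted p under 0.05). Tests without counts called 1080 genes (Mann-Whitney), 2309 (Spearman) and 277 (Spearman, lane regressed out). RLE moved the median log2 change of all genes from -0.01 to -0.07 and library size alone to 0.08. Leaving out lanes, litters or the 46-somite embryo gave 0 to 117 calls, with 6 without lane C, 52 without D, 117 without L, 99 without litter 12, 8 without litter 4 and 4 without litter 10. That embryo and the own-genotype term were chosen after the data had been seen.

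Where they could be fitted, the called genes kept their direction apart from these sign changes. *Lin28a* and *Pamr1* did not reach the minimum level under several alternatives, *Mustn1* did not in lane G alone, and *Arid3b* and *Pamr1* had no fit with their own genotype. *H3f3b* was at 1.05 (Mann-Whitney, log2), 0.74 (no lane term) and 0.058 (rho). *Unc5b* had a rho of 0.143 without lane. *Ppp1r16a* had a rho of 0.217 without lane, a slope of 0.004 by litter sums, and log2 changes from -1.16 without lane D to 0.003 without litter 7. Among named genes below 0 that were not called, Spearman without lane gave positive calls for *Smtn* (0.394), *Lfng* (0.393, and 0.497 by Mann-Whitney), *Pax2* (0.321), *Prim2* (0.353), *Pdk1* (0.351) and *Psmd3* (0.418). The cause was not tested. The interaction with the mother's genotype gave 2482 calls without a lane term and 1 each with library size alone (*Nap1l4*) and with slopes (*Rps20*). Over litters 6 genes passed without the 2 farthest litters, in place of 12. No paired analysis was possible because the replicate numbers only follow the order of the records and pair no embryos.

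Depth limits the low genes, and lanes E, C, D and M, with embryos of 1 stage extreme only, leave the contrast to lanes G and L and to the middle embryos.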
